A study of Eragrostis tef with 16 samples.

Results

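The genes described here were picked by words for wax, fatty acid elongation and cuticle lipids in tef (Eragrostis tef), an allotetraploid cereal with an A and a B subgenome. Not all of them belong to the plant surface, since some are described as peroxisomal or chloroplast enzymes. A gene belonged to the set when the description deposited with it contained ketoacyl-CoA synthase, ECERIFERUM, wax ester, GDSL, lipid-transfer, fatty acyl-CoA reductase, glycerol-3-phosphate acyltransferase, glycerol-3-phosphate 2-O-acyltransferase or long chain acyl-CoA synthetase. Of 5824 genes with values, 36 matched, and 1 further gene, the LACS2 gene Et_6B_048779, was kept out of the set and is given with the other pathway genes. The 36 were 6 ketoacyl-CoA synthases (KCS), 4 ECERIFERUM (CER) genes, 10 GDSL esterases or lipases, 1 lipid-transfer protein, 8 long chain acyl-CoA synthetases (LACS) and 7 glycerol-3-phosphate acyltransferases (GPAT). The words wax ester and fatty acyl-CoA reductase matched 0 genes. The 7 GPAT genes include 2 that are described as chloroplast 1-acyl-sn-glycerol-3-phosphate acyltransferases, whose name contains the words of the rule.

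Plants were raised in hydroponics at low or optimum calcium, and root and shoot gave 4 groups of 4 libraries: root at optimum calcium, root at low calcium, shoot at optimum calcium and shoot at low calcium. No source used here gives the calcium concentrations, plant age, length of treatment or whether replicates were separate plants, so p-values measure the spread between these libraries, which may be technical. The values are the authors' log2 of scaled reads plus 1, 1 value per gene and library, and whether the reads behind them are of mRNA or of small RNA that maps to these genes is not given. Higher and lower below refer to those reads.

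The plant cuticle is a layer of cutin, a polyester of fatty acids, filled and covered with waxes. Wax synthesis starts when LACS enzymes attach fatty acids to coenzyme A and a KCS enzyme condenses them with malonyl-CoA, which is the first step of each elongation round in the endoplasmic reticulum. CER proteins act in elongation and in the conversion of the very long chains to alkanes, while GPAT enzymes with phosphatase activity make the glycerol-bound precursors of cutin in the shoot, and related enzymes serve suberin, the barrier polymer of root.

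Recovered gene reads per library ran from 2320585 to 3443266 in root at optimum calcium, from 1199854 to 2019011 in root at low calcium, from 2626551 to 2849519 in shoot at optimum calcium and from 1822392 to 2098752 in shoot at low calcium. Low-calcium libraries carry lower library numbers than optimum-calcium libraries throughout, so that numbering and calcium cannot be told apart. The title of low-calcium shoot replicate 4 names both tissues, and the library was placed by its source name. The 9 photosynthesis genes listed as shoot markers took 6.41 to 10.1% of gene reads in shoot libraries and 0.0352 to 0.0753% in root libraries, and none of the 9 was at 0. The root marker list held 4 genes, all nicotianamine synthases, which took 0.268 to 2.91% of gene reads in root and 0.0390 to 0.143% in shoot. Replicate 3 of root at optimum calcium stood apart. Its mean Spearman correlation across genes was 0.910 with its own group and 0.920 with root at low calcium. For 26 of 36 members its value was nearer to the low-calcium mean, a count not set beside that of all genes. In replicate 3 of shoot at low calcium such means were nearly equal, 0.926 with its own group and 0.924 with shoot at optimum calcium. Counts of calcium calls in root are therefore given with and without replicate 3 of root at optimum calcium. Other root results include it unless stated. In bulk tissue, fewer cells of a type and less RNA per cell cannot be told apart.

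In shoot, 3 of 6 KCS genes, 3 of 4 CER genes (CER3 among them), 4 of 10 GDSL genes, 2 of 7 GPAT genes (a GPAT6 gene among them) and the lipid-transfer gene were higher at low calcium, while 4 of 8 LACS genes and 2 further GPAT genes were lower (with scaling by total reads, 2 LACS genes higher and 2 lower, and 0 GPAT genes lower). By limma with Benjamini-Hochberg adjustment over all 5824 genes at 0.05, 13 of 36 members rose and 6 fell, against 18.5% of all genes that rose, 20.9% that fell and 39.4% called in either direction. The median log2 difference of low minus optimum calcium was 0.47 over the members and -0.12 over all genes. The higher share among the called members was 68.4%, and it became 83.3% with median-ratio size factors (15 rose, 3 fell) and 89.5% with scaling by total reads (17 rose, 2 fell), scalings that put the median of all genes at 0.00 and 0.07. Over all genes the same share was 46.9%, 59.4% and 72.8%. The 4 low-calcium libraries lay above the 4 optimum-calcium libraries for 14 members and below them for 4, against 14.1% and 17% of all genes.

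**Figure D1:**
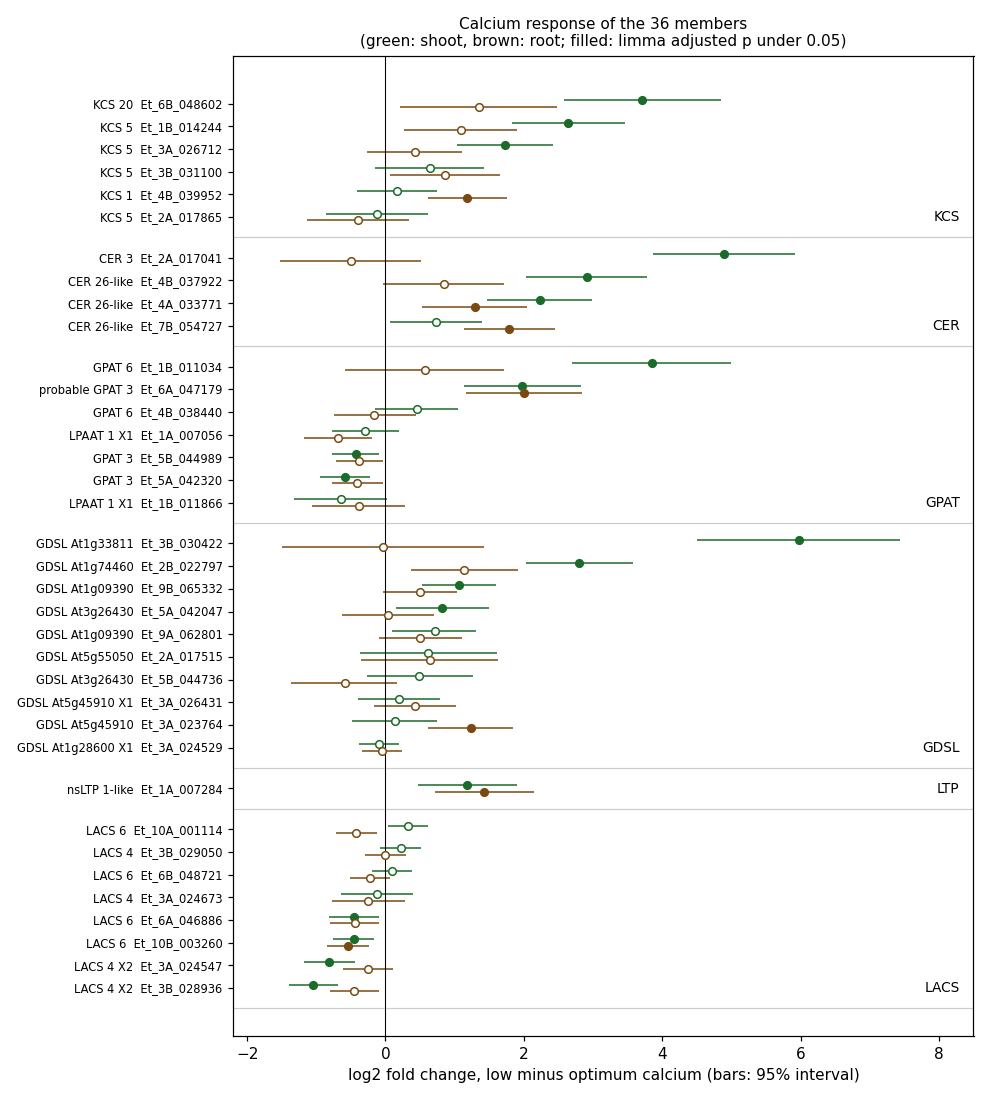
Low minus optimum calcium on the log2 scale for each of the 36 members, in root and in shoot, with 95% confidence intervals from limma. The GDSL gene Et_3B_030422 (5.98) and the CER3 gene Et_2A_017041 (4.89) have the largest shoot differences, while the probable GPAT3 gene Et_6A_047179 has the largest root difference, 2.00.

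Among the condensing enzymes, 3 of 6 KCS genes rose in shoot and 3 did not pass. KCS20, which in Arabidopsis acts in root suberin and in wax, is represented by Et_6B_048602. Its log2 values in shoot were 0.98, 0.00, 1.09 and 0.00 at optimum calcium and 3.29, 5.20, 3.58 and 4.85 at low calcium. Every low-calcium library was above every optimum-calcium library, and the difference was 3.71 (SE 0.54, limma adjusted p = 9.95e-05, n = 4 per group). It rests on 69 reads against 2, a ratio of 47.4 scaled for depth (95% interval 12.6 to 399, counting error only).

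The description of KCS5 is shared by 4 genes, named for an Arabidopsis enzyme of very-long-chain wax precursor elongation. Et_1B_014244 had 6.99, 7.63, 7.03 and 7.27 in shoot at optimum calcium and 9.72, 10.14, 9.74 and 9.90 at low calcium, groups that did not overlap. Its difference was 2.64 (SE 0.38, limma adjusted p = 1.08e-04). Et_3A_026712 gave 7.62, 7.38, 6.73 and 7.01 at optimum and 8.44, 8.82, 8.72 and 9.69 at low calcium, again without overlap, and rose by 1.73 (SE 0.33, limma adjusted p = 9.92e-04). The other KCS5 genes did not pass: Et_3B_031100 differed by 0.64 (95% interval -0.15 to 1.43) and Et_2A_017865 by -0.12 (-0.86 to 0.62), whose sign turned to 0.07 with scaling by the total. KCS1, Et_4B_039952, differed by 0.17 (-0.41 to 0.75). KCS genes together took 0.140 ± 0.035% of gene reads in shoot at optimum calcium and 0.244 ± 0.033% at low calcium (SD, n = 4).

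**Figure D2:**
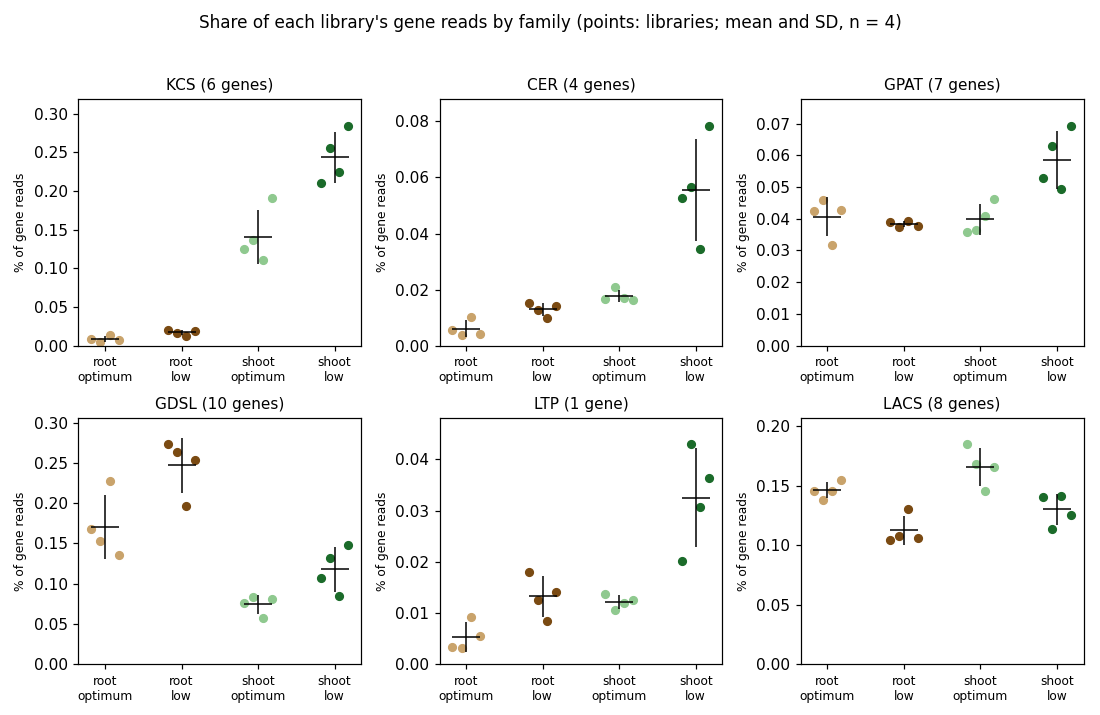
Percent of gene reads taken by each family in each of the 16 libraries, with the mean and SD of each group of 4. In shoot the KCS share goes from 0.140 to 0.244% and the CER share from 0.0177 to 0.0556%, while the LACS share goes from 0.166 to 0.130%. The LACS share is not a fall of each gene, since with scaling by total reads 2 LACS genes were called higher and 2 lower.

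In the CER family, 3 of 4 genes rose in shoot. CER3 works in Arabidopsis with CER1 in the formation of alkanes. The CER3 gene Et_2A_017041 had 1.97, 3.44, 2.46 and 3.70 in shoot at optimum calcium and 7.48, 8.03, 7.29 and 8.32 at low calcium. No library of one group reached the other, and the difference was 4.89 (SE 0.49, limma adjusted p = 4.27e-06), with 31 reads summed over the optimum-calcium libraries and 773 over the low-calcium ones. The CER26-like genes belong to a group of acyltransferase-like proteins that in Arabidopsis extend the chain length reached by elongation. Et_4B_037922 went from 4.49, 4.68, 4.17 and 4.54 to 7.36, 7.72, 6.28 and 8.14, and rose by 2.91 (SE 0.41, limma adjusted p = 8.81e-05). Et_4A_033771 went from 4.92, 5.34, 5.42 and 4.99 to 7.09, 7.66, 6.65 and 8.18, and rose by 2.23 (SE 0.36, limma adjusted p = 2.63e-04). In both genes the groups were separate. The third CER26-like gene, Et_7B_054727, differed by 0.73 (95% interval 0.07 to 1.39, limma adjusted p = 0.0743) although its shoot groups did not overlap either.

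Of 7 GPAT genes, 2 rose and 2 fell in shoot. GPAT6, in Arabidopsis an enzyme of cutin precursor synthesis, is the description of Et_1B_011034. Its values were 3.55, 3.89, 2.96 and 2.40 at optimum calcium and 7.39, 7.21, 5.67 and 7.92 at low calcium. The low-calcium libraries were all higher, by 3.85 (SE 0.54, limma adjusted p = 7.98e-05). The second gene of that description, Et_4B_038440, differed by 0.45 (95% interval -0.15 to 1.05) and did not pass. The probable GPAT3 gene Et_6A_047179 rose from 6.48, 6.78, 6.73 and 7.53 to 8.07, 9.54, 8.61 and 9.21, with no overlap, by 1.98 (SE 0.40, limma adjusted p = 0.0016). A pair described as GPAT3 fell, Et_5A_042320 by 0.58 (SE 0.17, limma adjusted p = 0.0149) and Et_5B_044989 by 0.43 (SE 0.16, limma adjusted p = 0.0375). Both calls of that pair were lost with scaling by total reads (limma adjusted p = 0.138 and 0.274), that of Et_5B_044989 also with median-ratio size factors (0.089), that of Et_5A_042320 also without low-calcium shoot replicate 2 (0.0546), and that of Et_5B_044989 also without each of 5 single shoot libraries, optimum-calcium replicates 1, 3 and 4 and low-calcium replicates 2 and 4 (0.0704 to 0.137).

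GDSL esterases and lipases are a large family that includes cutin synthases and enzymes that act on suberin and other acyl esters. In shoot 4 of 10 rose and 6 did not pass. Et_3B_030422, described as At1g33811, had 0.98, 0.99, 2.13 and 0.89 at optimum calcium and 7.16, 7.28, 6.30 and 8.17 at low calcium. Optimum-calcium libraries held 6 reads of it in all and low-calcium libraries 567, a ratio of 130 scaled for depth (95% interval 59.3 to 355, counting error only), and the log2 difference was 5.98 (SE 0.69, limma adjusted p = 1.46e-05). Et_2B_022797, described as At1g74460, had 3.42, 2.99, 3.15 and 2.97 against 6.09, 6.18, 5.44 and 6.03, separate groups that differed by 2.80 (SE 0.36, limma adjusted p = 4.24e-05). Et_9B_065332, described as At1g09390, had 7.26, 7.27, 6.68 and 7.57 against 7.73, 8.73, 7.90 and 8.69, separate groups that differed by 1.06 (SE 0.25, limma adjusted p = 0.00455). Its A copy Et_9A_062801 differed by 0.71 (SE 0.28, limma adjusted p = 0.0584). The fourth call, Et_5A_042047 (described as At3g26430, a difference of 0.82), had a limma adjusted p of 0.0483 and was lost without any 1 of 12 libraries.

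Non-specific lipid-transfer proteins are small secreted proteins that carry lipids. The single member, Et_1A_007284, had 8.48, 8.10, 8.48 and 8.24 in shoot at optimum calcium and 8.86, 10.03, 9.61 and 9.53 at low calcium. The groups did not overlap and differed by 1.18 (SE 0.34, limma adjusted p = 0.0127).

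Of 8 LACS genes, which attach fatty acids to coenzyme A, 4 fell in shoot. Of the LACS4 isoform X2 pair, Et_3B_028936 had 10.86, 10.68, 10.77 and 10.48 at optimum calcium and 9.85, 9.35, 10.05 and 9.35 at low calcium. Its A copy, Et_3A_024547, had 10.20, 10.04, 9.94 and 9.73 at optimum calcium and 9.45, 9.0, 9.56 and 8.67 at low calcium. In both genes every low-calcium library was below every optimum-calcium one, with falls of 1.05 (SE 0.17, limma adjusted p = 2.41e-04) and 0.81 (SE 0.17, limma adjusted p = 0.00235), and both passed under each scaling. LACS6, in Arabidopsis a peroxisomal enzyme that activates fatty acids for beta-oxidation, has 4 genes here. Et_10B_003260 fell by 0.46 (SE 0.14, limma adjusted p = 0.0186) and Et_6A_046886 by 0.45 (SE 0.17, limma adjusted p = 0.0434), and both calls were lost with median-ratio size factors and with total scaling. Their copies Et_10A_001114 (0.33) and Et_6B_048721 (0.10) did not pass with the deposited scaling. Without single libraries, Et_10B_003260 lost its call for shoot replicate 4 of either calcium level (0.0502 and 0.0694), and Et_6A_046886 for 9 of 16 libraries. With scaling by total reads the family count became 2 higher and 2 lower.

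In root fewer members passed. With limma, 6 of 36 rose and 1 fell, against 5.32% and 3.0% of all genes and 8.33% in either direction, and the median difference was 0.02 over the members and -0.03 over all genes. Low-calcium root libraries lay above all optimum-calcium ones for 2 members and below them for 5, against 12% and 9.53% of all genes. The 2 genes whose ranges did not overlap upward were Et_6A_047179 and Et_7B_054727.

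Et_6A_047179, the probable GPAT3 gene, had 5.11, 5.02, 4.39 and 5.91 in root at optimum calcium and 8.22, 6.83, 6.75 and 6.63 at low calcium, and rose by 2.00 (SE 0.40, limma adjusted p = 0.0136). The CER26-like gene Et_7B_054727 had 3.95, 3.19, 4.01 and 2.92 at optimum calcium and 6.28, 5.05, 4.57 and 5.32 at low calcium, and rose by 1.79 (SE 0.31, limma adjusted p = 0.0061). Both stayed called without any single library.

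In each of the other root calls optimum-calcium replicate 3 was the highest of its group, and among them only Et_10B_003260 had groups that did not overlap. Without that replicate the difference of Et_10B_003260 was -0.46 (limma adjusted p = 0.0487). The lipid-transfer gene Et_1A_007284 had 5.99, 5.87, 7.56 and 6.70 at optimum and 8.52, 7.94, 7.29 and 8.08 at low calcium, and rose by 1.42 (SE 0.34, limma adjusted p = 0.0236). KCS1, Et_4B_039952, had 6.48, 5.88, 7.32 and 6.36 against 8.18, 7.58, 7.17 and 7.84, and rose by 1.18 (SE 0.27, limma adjusted p = 0.0216). Here the third optimum-calcium library reached into the low-calcium range in each gene. The GDSL gene Et_3A_023764, described as At5g45910, differed by 1.23 (SE 0.29, limma adjusted p = 0.0236), the CER26-like gene Et_4A_033771 by 1.29 (SE 0.36, limma adjusted p = 0.0399) and the LACS6 gene Et_10B_003260 by -0.54 (SE 0.14, limma adjusted p = 0.0334). Each of these 5 was lost without 5 to 7 of the single libraries, with limma adjusted p up to 0.127. Without optimum-calcium replicate 3, 10 members rose and 2 fell, all 7 earlier calls among them. These counts are not set beside those of all genes in the same fit, so they cannot be read as particular to the members. The 5 gained calls were Et_6B_048602 (1.79), Et_1B_014244 (1.54), Et_2B_022797 (1.53), Et_9A_062801 (0.86) and Et_1A_007056 (-0.83), a chloroplast lysophosphatidic acid acyltransferase that makes phosphatidic acid.

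**Figure D3:**
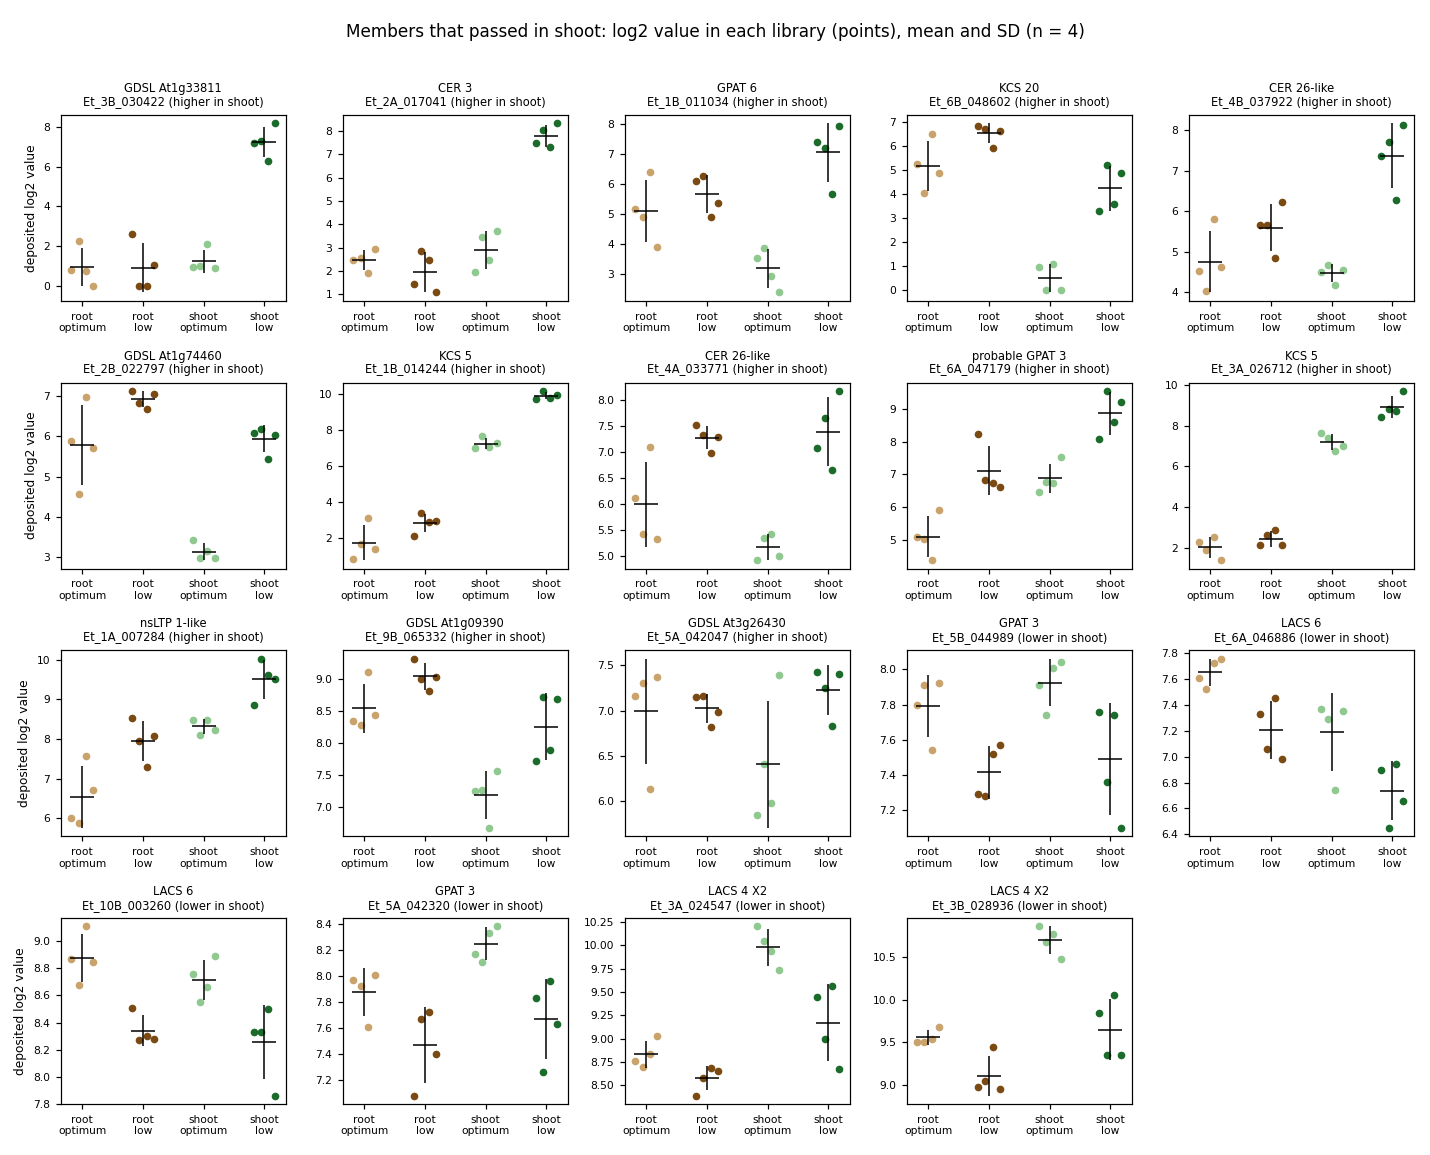
Deposited log2 values of selected members in each of the 16 libraries, in 4 groups, with the group mean. In shoot the CER3 gene Et_2A_017041 lies between 1.97 and 3.70 at optimum calcium and between 7.29 and 8.32 at low calcium, and in root its 8 values lie between 1.08 and 2.92.

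Counted over both tissues, 3 members rose in root and in shoot (Et_6A_047179, Et_1A_007284 and Et_4A_033771), 1 fell in both (Et_10B_003260) and 14 were called in neither. The same counts over all genes are not given here, so these cannot be set against the series. Over those 14 the differences ran from -0.69 to 0.86 in root and from -0.65 to 0.71 in shoot. One of them, the GDSL gene Et_3A_024529 (described as At1g28600), had 10.03, 10.06, 9.87 and 10.04 in root at optimum calcium and 10.14, 10.07, 9.71 and 9.88 at low calcium. Its root groups overlapped, the 95% interval of the difference was -0.34 to 0.24 in root and -0.39 to 0.19 in shoot, and the sign of both turned with median-ratio size factors. The difference between the responses was tested itself, as root minus shoot. It passed for 5 of 36 members, all with the response in shoot the more positive, against 5.58% of all genes that passed in that direction, 1.82% in the other and 7.40% in either. CER3 Et_2A_017041 had a difference of -5.39 (SE 0.69, limma adjusted p = 4.44e-04), from -0.50 in root and 4.89 in shoot. The GDSL gene Et_3B_030422 had -6.01 (SE 0.97, limma adjusted p = 0.00189), from -0.04 and 5.98, and its call was lost with a pseudocount of 0.1 (0.0595). In root it was at 0 to 7 reads in each library. GPAT6 Et_1B_011034 had -3.28 (SE 0.76, limma adjusted p = 0.0157), a call lost with voom on recovered reads (0.0826) and without both root replicates 3 (0.0525). The CER26-like gene Et_4B_037922 had -2.06 (SE 0.58, limma adjusted p = 0.043) and LACS6 Et_10A_001114 had -0.75 (SE 0.20, limma adjusted p = 0.0322), both lost when most single libraries were left out, with limma adjusted p up to 0.0961 and 0.0721. Without root optimum-calcium replicate 3, 4 members passed with the more positive response in shoot and 2 with the more positive response in root, KCS1 Et_4B_039952 (1.28) and the GDSL gene Et_3A_023764 (1.37). The counts of all genes in that fit are not given here.

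The share of members called between root and shoot at optimum calcium was close to that of all genes. At optimum calcium 9 of 36 members were higher in root and 15 lower by limma, against 32.9% and 33.7% of all genes (66.6% in either direction), and at low calcium 8 and 20, against 28.4% and 28.4% (56.9% in either direction). Scaling by total reads, which shifts the median of all genes to 0.41, gave 15 higher and 14 lower at optimum calcium. All 4 KCS5 genes and KCS1 were lower in root than in shoot at optimum calcium, with root minus shoot differences of -3.56 for KCS1 and -5.16 to -7.80 for KCS5. Et_3B_031100, with the largest of these differences, had 2.98, 1.39, 2.70 and 3.44 in root and 10.49, 10.33, 9.85 and 11.03 in shoot, far apart in every library. KCS20 had the opposite order: Et_6B_048602 had 5.26, 4.02, 6.50 and 4.89 in root against its shoot values given above, 4.65 higher in root (SE 0.54, limma adjusted p = 8.9e-07). At low calcium that lead was 2.29 (SE 0.54, limma adjusted p = 0.00162).

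Other members with large tissue differences were the CER26-like gene Et_7B_054727, with a root minus shoot difference of -5.14 at optimum calcium, and the GDSL genes Et_2A_017515 (At5g55050) and Et_2B_022797 (At1g74460), 3.79 and 2.65 higher in root. GPAT6 Et_1B_011034 was 1.90 higher in root at optimum calcium (SE 0.54, limma adjusted p = 0.00533) and lower in root at low calcium, with a root minus shoot difference of -1.38 (SE 0.54, limma adjusted p = 0.0386). CER3 Et_2A_017041 differed by -0.43 between tissues at optimum calcium (95% interval -1.46 to 0.60) and by -5.82 at low calcium, where it was lower in root (SE 0.49, limma adjusted p = 2.51e-08).

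Of the 36 members, 20 form 10 pairs with 1 gene on an A and 1 on a B chromosome of the same number. The genes of a pair share the best hit behind their descriptions, with no further gene that does so on that chromosome number. Reads may be divided between near-identical copies in a way that the deposited values do not show. In shoot the copies of 2 of 10 pairs changed by different amounts, against 12.9% of 1434 such pairs over all genes. An unadjusted limma p under 0.05 was found for 5 of 10. That count is not set beside the one over all pairs and cannot be read as particular to the members. The KCS5 pair Et_3A_026712 and Et_3B_031100, of which only the A copy was called, did not pass (1.09, SE 0.48, limma adjusted p = 0.152). In the LACS6 pair Et_10A_001114 and Et_10B_003260, the A copy had 7.56, 7.84, 7.85 and 8.33 at optimum and 8.13, 8.12, 8.43 and 8.20 at low calcium, and the B copy 8.76, 8.55, 8.66 and 8.89 and then 8.33, 8.33, 8.50 and 7.86. The B copy fell, the A copy differed by 0.33 (limma adjusted p = 0.076), and the difference of the changes was 0.79 (SE 0.14, limma adjusted p = 0.00135). In the LACS6 pair Et_6A_046886 and Et_6B_048721 it was -0.55 (SE 0.17, limma adjusted p = 0.0378), a call lost without each of optimum-calcium shoot replicates 1, 2 and 4 and low-calcium shoot replicates 2 and 4 (0.0644 to 0.152). In root 0 of 10 pairs passed by limma, against 1.53% of all pairs. An unadjusted limma p under 0.05 was found for 1, again without the count over all pairs.

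**Figure D4:**
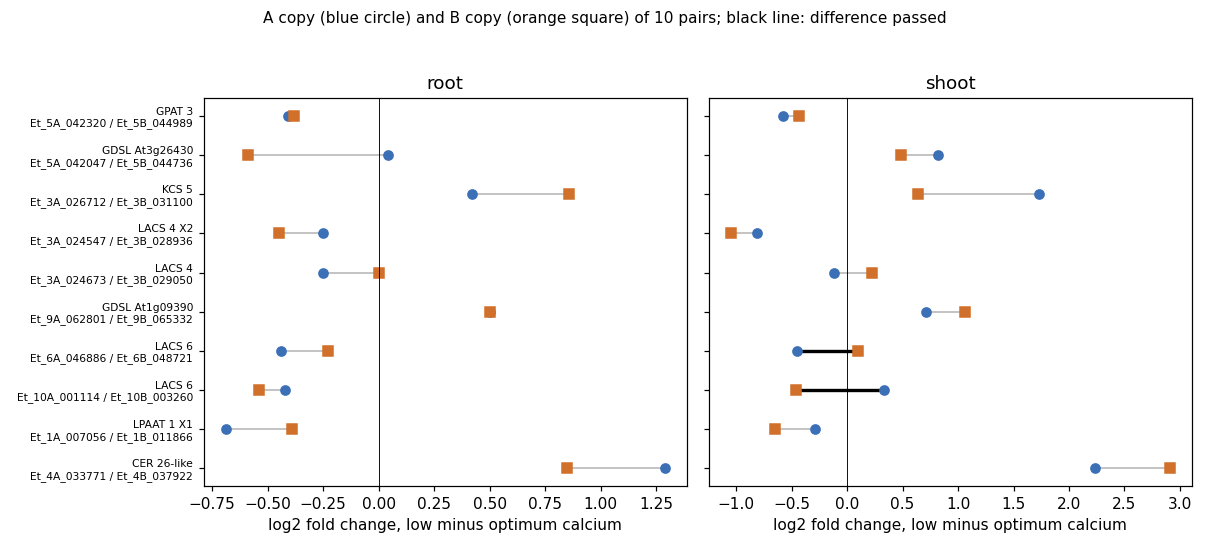
Low minus optimum calcium on the log2 scale of the A copy and the B copy of each of the 10 member pairs, in root and in shoot. The LACS6 pair Et_10A_001114 and Et_10B_003260 stands furthest apart among the pairs that passed in shoot, with 0.33 for A and -0.46 for B.

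Another 35 genes of cutin, wax and acyl lipid metabolism, listed by their descriptions, were read from the same fit. That list was made with earlier results of these data known. Against 18.5% and 20.9% of all genes, 10 of the 35 rose and 3 fell in shoot. Among these were the LACS2 gene Et_6B_048779 (6.82, SE 0.62, limma adjusted p = 1.87e-06), named for an Arabidopsis enzyme of cutin synthesis, both cytochrome P450 86A4 genes, Et_7A_053112 (7.31) and Et_7B_055862 (6.70), whose family hydroxylates fatty acids, both BODYGUARD 3 genes, Et_2A_015401 (6.09) and Et_2B_019607 (5.99), and both genes described as very-long-chain 3-oxoacyl-CoA reductase 1, Et_1A_008666 (1.52) and Et_1B_013475 (1.11), which act in the reduction after the KCS step. With a pseudocount of 0.1 the LACS2 difference was 8.89 and those of Et_7A_053112 and Et_7B_055862 were 9.40 and 7.96. All 3 still passed, but their size depends on the offset. The 3 very-long-chain enoyl-CoA reductases, which act last in an elongation round, did not pass, at 0.22, -1.15 and -0.16. The 3 that fell were the chloroplast omega-6 desaturase pair, by 1.13 and 1.05, and Et_3B_030118, by 0.56, whose deposited description is cut short after stearoyl-[acyl-carrier-protein. With scaling by total reads 1 of these 3 calls remained, that of Et_8B_060073, and without single libraries Et_8A_057719 and Et_3B_030118 each lost their call for 5 of 16 libraries. In root 3 of the 35 rose, against 5.32% of all genes. The 3 were the BODYGUARD 3 pair (1.50 and 1.66) and Et_1A_008666 (0.68, limma adjusted p = 0.0472). Leaving out 1 library at a time gave 0 to 8 higher, and the 3 calls were lost for 6, 5 and 9 of 16 libraries. Without optimum-calcium replicate 3, 8 rose and 1 fell, with all 3 earlier calls among them, counts not set beside those of all genes. The 4 genes of the wax exporter ABCG11 differed by -0.39 to 1.02 in root and by -0.19 to 0.21 in shoot, and 1 of them, Et_4B_037259, passed in root without that replicate (1.49, limma adjusted p = 0.0131).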

How the data were processed

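The authors deposited 1 table of the whole series. Its gene block, headed as target gene IDs, lists 11458 IDs, of which 5824 have log2 values in 16 libraries, and gives a description from the best hit, a Setaria gene for all 36 members. Aligner, build and counter were not given in the sources used here. Columns were matched to libraries by the number in column name and title, and the letter H that opens optimum-calcium columns is not explained. The small RNA block was not used here. Undoing the deposited log2 and subtracting 1 gave whole multiples of a per-library step for 100.0% of 93184 values (tolerance 0.1 step), so values are log2 of scaled reads plus 1 and whole reads were recovered. This offset understates the change of genes with few reads.

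limma 3.58.1 in R 4.3.3, with an intensity trend, was fitted to all genes and all 16 libraries with 1 coefficient per group. Benjamini-Hochberg adjustment over 5824 genes was used with a threshold of 0.05. The fit was also run on simulated reads with the same dispersion for all genes and no difference between tissues, a setting simpler than these data. Copy pairs were tested by limma on the A minus B difference over 1434 pairs, which was added once the data had been seen. Results were recomputed with voom, a replicate block, libraries of 1 tissue, median-ratio or total scaling, a minimum of 50 CPM in 4 libraries, a pseudocount of 0.1 or a log2 difference of 1 or more, and without each library. Members and lists were chosen with earlier results of these data known. Members named are up to 12 with the largest rise and 12 with the largest fall in each calcium contrast, up to 6 each way between tissues, up to 8 with the smallest p in the difference between responses, the 2 most read of each family, and copies with the same description. Any other member named was chosen after its values were seen. Replicates shared a number only and were not paired.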

Additional observations from a re-analysis of the deposited data

Results flagged for a closer look

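Of 172 groups of 4 libraries, covering members' values and family shares, 10 held 1 library far from the other 3, where chance gives about 1 in 20. In shoot at low calcium, the KCS5 gene Et_3B_031100 was at 10.65 in replicate 1 and between 11.18 and 11.22 in the others. In shoot at optimum calcium, replicate 3 was low for the GDSL gene Et_3A_024529 (8.41, others 8.81 to 8.83) and the LACS6 gene Et_6A_046886 (6.74, others 7.29 to 7.37) and high for the GDSL gene Et_3B_030422 (2.13, others 0.89 to 0.99), and replicate 4 was low for the GDSL gene Et_3A_026431 (7.37, others 8.35 to 8.46). In root at optimum calcium, replicate 3 was low for the GDSL gene Et_5A_042047 (6.13, others 7.16 to 7.37). In root at low calcium, replicate 1 was high for the LACS6 gene Et_10B_003260 (8.51, others 8.27 to 8.30) and the probable GPAT3 gene Et_6A_047179 (8.22, others 6.63 to 6.83). LACS genes took 0.13% of gene reads in root at low calcium replicate 3 (others 0.105 to 0.108%), and CER genes 0.0211% in shoot at optimum calcium replicate 2 (others 0.0163 to 0.017%).

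The response to calcium differed between root and shoot by limma's test of the difference, given on the log2 scale as root minus shoot, for 5 members. The values were -6.01 for Et_3B_030422, -5.39 for Et_2A_017041, -3.28 for Et_1B_011034, -2.06 for Et_4B_037922 and -0.75 for Et_10A_001114.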

How the results depend on the processing

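Counts in this section are not set beside those of all genes under the same alternative. No called value of a named member changed its sign under any alternative. Of 1559 values of named members under alternatives, 1409 kept direction and side of the threshold, 101 lost a call, 34 gained one and 15 uncalled values turned sign, and the cause was not tested for any. In root, 11 members rose and 4 fell without both replicates 3, 0 fell at a log2 difference of at least 1, and 2 fell with libraries of 1 tissue. In shoot the 6 that fell became 1 at a log2 difference of at least 1, 3 with median-ratio factors or 1 tissue, and 2 with total scaling or voom. The 13 that rose in shoot became 9 with the filter and 17 with total scaling or voom. In the difference between responses 3 were higher and 2 lower without both replicates 3, 2 lower with the filter and 3 lower with voom. Between tissues, 15 were higher in root at optimum calcium with total scaling or voom, and 4 at low calcium for a log2 difference of at least 1. Among other lipid genes in root, 1 rose with the filter, 6 with 1 tissue and 8 without both replicates 3, while 1 fell with total scaling, the filter, voom or without both replicates 3, and 2 with 1 tissue. Among them in shoot, 5 rose with the filter, and 1 fell with total scaling or 1 tissue. The members' shoot median was 0.59 with median-ratio factors, 0.66 with total scaling, 0.22 with the filter and 0.65 with voom.

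Over all 36 members, 4 uncalled calcium differences in root and 6 in shoot turned sign under at least 1 alternative. Apart from leaving out single libraries, these were those of Et_3A_024529, in root 0.02 with median-ratio factors and in shoot 0.02, 0.09 and 0.09 with median-ratio factors, total scaling and voom, of Et_3B_030422 in root, 0.05 with voom and 0.20 without both replicates 3, of Et_2A_017865 and Et_3A_024673 in shoot, 0.07 with total scaling and with voom for each, of Et_3B_029050 in root, 0.07 with median-ratio factors and 0.13 without both replicates 3, and of Et_5A_042047 in root, -0.18 without both replicates 3. Leaving out 1 library at a time, Et_2A_017865 in shoot ranged from -0.21 to 0.03, Et_3A_023764 in shoot from -0.00 to 0.25, Et_3A_024529 in root from -0.12 to 0.03, Et_3B_030422 in root from -0.60 to 0.40, Et_6B_048721 in shoot from -0.02 to 0.18, Et_5A_042047 in root from -0.25 to 0.16, Et_3B_029050 in root from -0.09 to 0.11 and Et_3A_026431 in shoot from -0.07 to 0.33. In the same fits the members' shoot median ranged from 0.28 to 0.52, member pairs that differed in shoot from 1 to 2, members higher in root from 2 to 10 and lower from 0 to 2, members lower in shoot from 3 to 7, and members higher and lower in the difference from 0 to 2 and 3 to 7. Other lipid genes ranged from 0 to 8 higher and 0 to 2 lower in root, and from 1 to 5 lower in shoot.

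Replicates share only a number: same-number correlations of deviations ran from -0.405 to 0.302. With the replicate block, 5 members rose and 1 fell in root, 13 rose and 4 fell in shoot, and 4 were lower in the difference. The block put other lipid genes at 2 higher in root, and 10 higher and 4 lower in shoot. It moved the limma adjusted p of Et_4A_033771 in root to 0.0666. Depth limits KCS5, CER3 and the GDSL gene Et_3B_030422 in root, where single libraries held 0 to 22 of their reads.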
